A study of Mus musculus with 12 samples.

Results

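Iron was withheld from maturing red cell precursors with DFO (deferoxamine, an iron chelator), and RNA from these cells was compared with RNA from untreated cells of the same line. The comparison holds 3 DFO libraries and 3 control libraries, 6 of the 12 libraries of the study, chosen by their titles, and covers every gene with at least 1 TPM in at least 3 of the 12 libraries, 11920 genes in all. TPM is a level corrected for transcript length and scaled to a fixed total in each library. The cells were G1E-ER4, a single clonal line of mouse erythroid progenitors that lacks a working Gata1 gene of its own and carries a GATA1 and estrogen receptor fusion protein, which estradiol switches on to begin red cell maturation. The DFO cultures received 50 µM DFO and 100 nM β-estradiol from the same moment and were harvested at 24 h, and the control cultures received 100 nM β-estradiol alone for 24 h. All cultures were grown with serum, erythropoietin and medium conditioned by cells that make Kit ligand. 2 further groups of 3 libraries, given estradiol for the same time, serve below for comparison: SA at 0.2 mM, used to inhibit ALAD, an enzyme of heme synthesis, and DTPA at 50 µM, a chelator used to lower zinc. By their titles, the 3 libraries in a group are biological replicates. The treatment protocol names DFO for the ALAD group as well, against its titles, and the titles were followed.

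Between 19857418 and 24326305 reads per library could be recovered from the deposited values, and 1 read per kilobase was worth 0.124 to 0.160 TPM. All 9 erythroid markers were measured, with a summed level of 27786 to 29743 TPM in the DFO libraries and 37025 to 40253 TPM in the controls, most of it globin. The 14 megakaryocyte markers summed to 10.4 to 11.1 TPM in the DFO libraries and 8.29 to 9.53 TPM in the controls, with Ppbp and Vwf among those listed at 0. The 22 mast cell and myeloid markers (15 listed at 0, Mpo and Cpa3 among them) summed to at most 1.06 TPM, and the 15 lymphoid markers (12 listed at 0) to at most 0.777 TPM, in any of the 6 libraries. These levels are from bulk RNA, in which fewer cells of a kind and less RNA per cell cannot be told apart.

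Cells read their iron supply mainly through 2 iron-regulatory proteins, IRP1 (the product of Aco1) and IRP2 (the product of Ireb2). When iron is scarce these proteins bind a hairpin in certain messages, the iron-responsive element. Binding in the 3′ UTR of the transferrin receptor message protects it from decay, and binding in the 5′ UTR of ferritin, ferroportin and erythroid ALA synthase messages holds back their translation. Erythroid cells are the body's main users of iron, most of which goes into heme. Iron is also a cofactor of ribonucleotide reductase, of the hydroxylases that mark HIF for destruction, and of many histone demethylases, and DFO is widely used in cultured cells to imitate low oxygen.

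The hairpins are shown first because the iron genes are described below by the side of the message that holds them. The pattern searched was an unpaired C, a stem of 5 base pairs of which at least 4 are Watson-Crick pairs, and a loop of CAGTG followed by A, C or T. Among 21875 genes with a coding transcript, 47 held it in a UTR. Each sequence is 30 bases of the GENCODE M21 transcript on GRCm38, written as DNA in the sense of the message, with the loop in capitals. The transferrin receptor gene Tfrc (chr16:32608920-32632794, plus strand) held 4 in its 3′ UTR.
Tfrc 3′ UTR, chr16:32631220-32631249: attatcggaagCAGTGCcttccataattat
Tfrc 3′ UTR, chr16:32631599-32631628: attatcgggagCAGTGTcttccataatgca
Tfrc 3′ UTR, chr16:32631664-32631693: tatatcggagaCAGTGAtctccatatgtta
Tfrc 3′ UTR, chr16:32631711-32631740: attatcgggaaCAGTGTttcccataatttt
The other genes shown held 1 element each, in the 5′ UTR. Ftl1 and Slc40a1 lie on the minus strand and the rest on the plus strand, and the element of Alas2 spans an intron.
Ftl1, ferritin light chain, chr7:45459777-45459806: tcttgcttcaaCAGTGTttgaacggaacag
Fth1, ferritin heavy chain, chr19:9982733-9982762: tcctgcttcaaCAGTGCttgaacggaaccc
Slc40a1, ferroportin, chr1:45925463-45925492: aacttcagctaCAGTGTtagctaagtttgg
Alas2, erythroid ALA synthase, chrX:150547459-150552151: tggttcgtcctCAGTGCagggcaacaggac

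DFO changed many messages by a little. With limma on log2(TPM + 1), 1272 of the 11920 tested genes (10.7%) differed at an adjusted p below 0.05, of which 1000 (8.39%) rose and 272 (2.28%) fell. Their median absolute log2 fold change was 0.19, and only 22 genes (0.185%), 11 up (0.0923%) and 11 down (0.0923%), also reached a log2 fold change of 1. The balance of rises and falls depended on the scaling: after median-of-ratios scaling 1069 genes (8.97%) were called, 423 (3.55%) higher and 646 (5.42%) lower, so that 39.6% of called genes were higher, against 78.6% in TPM. Median-of-ratios scaling shifted the median log2 fold change of all genes by 0.051, from 0.045, and 423 of the rises and 271 of the falls were called in both. Trimmed-mean scaling gave 417 (3.5%) higher and 657 (5.51%) lower. Leaving out DFO library 1, 2 or 3 left 844, 847 or 840 called genes, and the falls numbered 174 without DFO 3 or control 3 and 179 without control 1. Without regard to the test, all 3 DFO libraries lay outside the control range in 3597 genes (30.2%), above it in 2826 (23.7%) and below it in 771 (6.47%).

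A few abundant classes of message took a different share of the total. Globins held 2.45%, 2.54% and 2.51% of all TPM in the DFO libraries and 3.43%, 3.98% and 3.69% in the controls. The 2 ferritins held 2.37% ± 0.0158 with DFO and 2.80% ± 0.115 in controls, and 84 cytosolic ribosomal protein genes held 9.31% ± 0.0608 with DFO and 8.43% ± 0.123 in controls (SD, n = 3 each). The DFO and control libraries did not overlap in any of these, and each gave p = 0.1 in an exact two-sided permutation test, the smallest that 3 against 3 allow. The 37 mitochondrially encoded genes held 6.28% ± 0.102 with DFO and 6.33% ± 0.119 in controls, within the spread of the libraries.

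**Figure D1:**
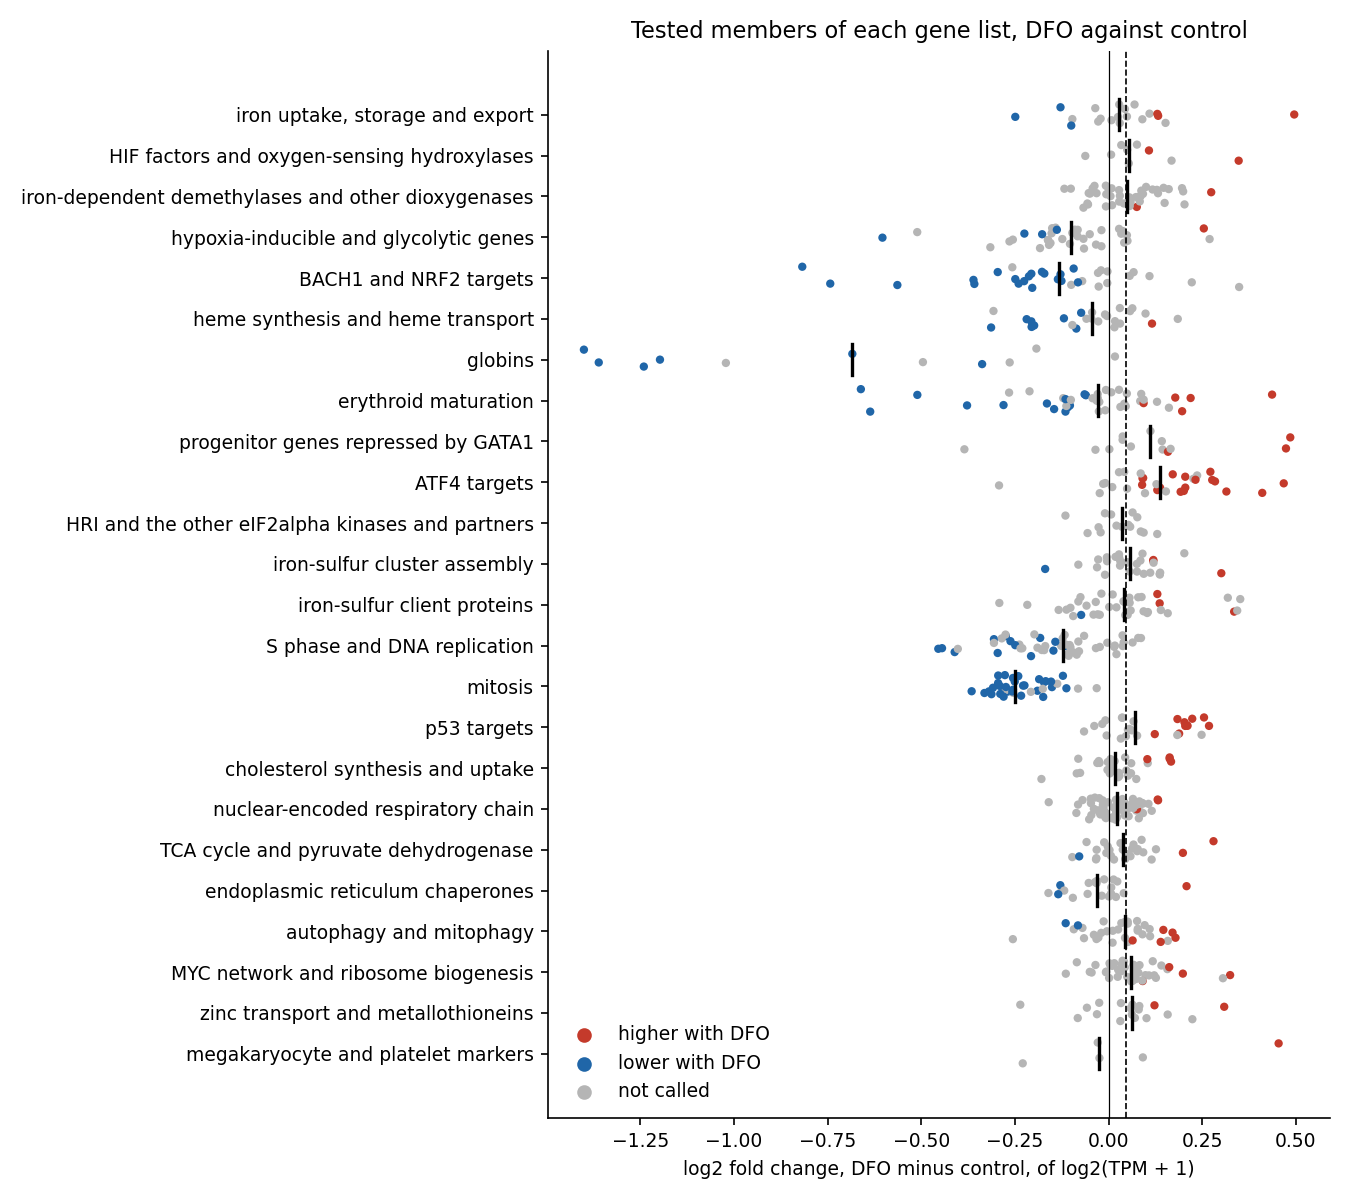
Log2 fold change, DFO minus control, of log2(TPM + 1) for each tested member of 24 gene lists, 1 point per gene, coloured by call at an adjusted p below 0.05. Black bars are list medians, the solid line marks 0 and the dashed line the median of all tested genes (0.045), and the medians of the globin, mitosis and BACH1 and NRF2 lists lie furthest to the left.

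Of 20 tested genes of iron uptake, storage and export (30 listed), 3 rose, 3 fell and 14 were not called, against 8.39% higher and 2.28% lower over all genes. The median log2 fold change was 0.029 against 0.045 over all genes. After median-of-ratios scaling 1 gene of the list rose and 4 fell, against 3.55% and 5.42% of all genes. Tfrc encodes the receptor that brings transferrin-bound iron into the cell, and held 4 matches to the searched hairpin pattern after its coding sequence. It had 1302, 1217 and 1217 TPM with DFO, against 909, 861 and 880 TPM in controls. All 3 DFO libraries lay above all 3 controls (log2 fold change 0.50 ± 0.034 SE, adjusted p = 1.94e-05). Aco1, which encodes IRP1, rose by a log2 fold change of 0.13 ± 0.022 (adjusted p = 0.00424), with 129, 131 and 124 TPM with DFO against 117, 116 and 117 TPM in controls. That call was lost after median-of-ratios and trimmed-mean scaling (adjusted p = 0.075 and 0.077). Zfp36, an RNA-binding protein that speeds decay of AU-rich messages, was the third gene called higher (0.13 ± 0.038, adjusted p = 0.0472), and its call was lost under most alternatives, each single library left out included except control 3.

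Ferritin stores iron, and both of its chains fell. Ftl1 had 21540, 21759 and 21522 TPM with DFO, against 27082, 25090 and 24927 TPM in controls (log2 fold change -0.25 ± 0.028, adjusted p = 0.000358, or 0.0679 with no filter on low values). Fth1 had 2048, 2131 and 2139 TPM with DFO, against 2252, 2295 and 2360 TPM in controls (-0.13 ± 0.026, adjusted p = 0.0106). The DFO libraries lay below every control for both chains. Ncoa4, the receptor that delivers ferritin to autophagy, fell by 0.10 on the log2 scale (adjusted p = 0.0341), a call lost when DFO 2 or 3 or control 1 or 3 was left out (adjusted p between 0.0975 and 0.108).

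Alas2 had 2096, 2172 and 2141 TPM with DFO, against 2283, 2248 and 2273 TPM in controls, a fall of 0.09 on the log2 scale (adjusted p = 0.00662, or 0.0541 in a fit of the 6 libraries alone). Slc40a1, the iron exporter, was not called, with 20.5, 21.2 and 20.7 TPM with DFO against 20.1, 18.3 and 19.2 TPM in controls (0.11 ± 0.042, adjusted p = 0.132). Slc11a2, the endosomal iron transporter DMT1, did not pass the test either (0.15 ± 0.047, adjusted p = 0.0617), although its DFO libraries lay above the controls. Ireb2 and Fbxl5 were not called: Ireb2 differed by -0.02 (95% interval -0.13 to 0.09) and Fbxl5, which targets IRP2 for destruction, by 0.04 (-0.08 to 0.17).

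**Figure D2:**
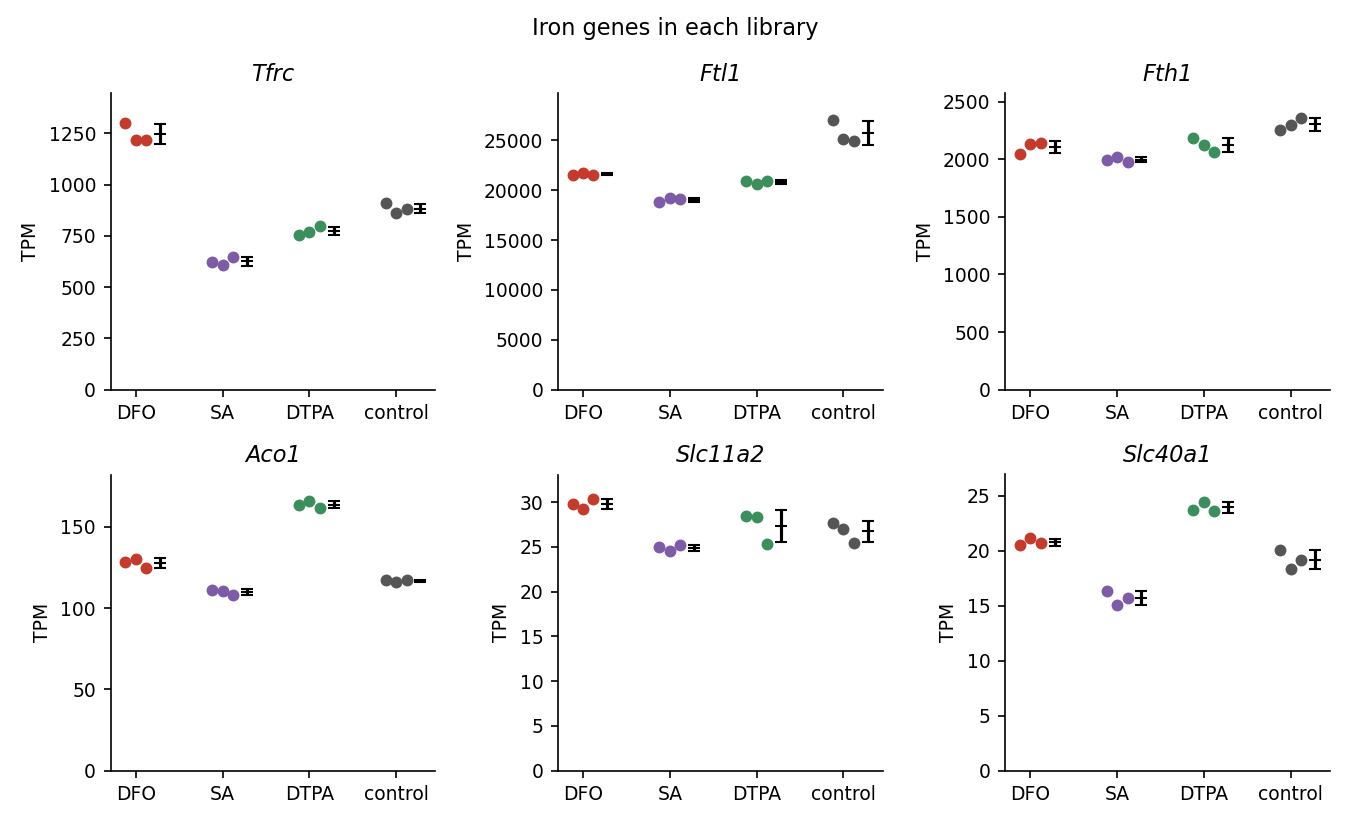
TPM of 6 iron genes in each library of the DFO, SA, DTPA and control groups, 1 point per library, with mean and SD (n = 3) beside each group. Tfrc in the 3 DFO libraries lies between 1217 and 1302 TPM, above every other library, and Ftl1 in every DFO library lies below every control.

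Part of the iron list was higher with DFO than with SA. DFO and SA differed in 1612 genes (13.5% of those tested), 860 (7.21%) higher and 752 (6.31%) lower with DFO, and in the iron list 8 of 20 genes were higher, 1 was lower and 11 were not called. Tfrc averaged 1245 ± 48.8 TPM with DFO and 626 ± 20.9 TPM with SA (SD, n = 3 each), a log2 difference of 0.99 (95% interval 0.92 to 1.07, adjusted p = 1.34e-07). Slc40a1 (0.38, adjusted p = 0.000159), Slc11a2 (0.25, adjusted p = 0.00486), Aco1 (0.22, adjusted p = 9.03e-05) and Ftl1 (0.18, adjusted p = 0.0015) were also higher with DFO than with SA. Ncoa4 was the gene of the list that was lower, with 214 ± 3.45 TPM with DFO and 252 ± 5.98 TPM with SA (-0.23, adjusted p = 0.000165).

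HIF, the oxygen-sensing transcription factor, is degraded after iron-dependent prolyl hydroxylases act on it, and its targets include the glycolytic enzymes. Of 36 tested hypoxia-inducible and glycolytic genes (45 listed), 1 rose and 4 fell, 28 of the 36 fold changes were negative, and the median was -0.10 against 0.045 over all genes. Over all genes 8.39% rose and 2.28% fell. The 4 falls were 2 without DFO 1, DFO 2, control 2 or control 3, 6 after median-of-ratios scaling and 11 by voom. Vegfa, the angiogenic growth factor and a standard HIF target, had 4.47, 4.78 and 5.53 TPM with DFO, against 6.95, 9.01 and 8.11 TPM in controls. Its DFO libraries lay below the controls (log2 fold change -0.60 ± 0.13, adjusted p = 0.0154), a call lost without DFO 1, DFO 2, control 2 or control 3 (adjusted p between 0.0511 and 0.062) and with a pseudocount of 0.1 (0.0619).

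Among the others, Pfkfb4, which sets the level of a glycolytic activator, fell by 0.22 on the log2 scale (adjusted p = 0.000274), with 170, 165 and 163 TPM with DFO against 198, 188 and 196 TPM in controls. Higd1a, a mitochondrial protein of hypoxic cells, fell by 0.18 (adjusted p = 0.0341, or between 0.098 and 0.114 without DFO 1, DFO 2, control 2 or control 3), and Pfkp, named here after its values were seen, by 0.14. Pfkm, the muscle-type phosphofructokinase, was the only gene of the list that rose, with 660, 651 and 627 TPM with DFO against 543, 541 and 541 TPM in controls (0.25 ± 0.023, adjusted p = 9.85e-05).

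Pgk1, Ldha and Bnip3 overlapped between the groups and were not called. Pgk1, phosphoglycerate kinase, had 392, 450 and 513 TPM with DFO and 488, 647 and 553 TPM in controls (-0.32, adjusted p = 0.111). Ldha, lactate dehydrogenase, had 733, 836 and 962 TPM with DFO and 881, 1162 and 1000 TPM in controls (-0.26, adjusted p = 0.16), and Bnip3, a mitophagy receptor, had 182, 214 and 240 TPM with DFO and 221, 284 and 254 TPM in controls (-0.26, adjusted p = 0.187). These genes varied more between replicates of 1 group than most genes did, with standard errors of 0.111 to 0.116 against a median of 0.0615 over all genes. Pgk1 and Ldha were chosen after their values were seen.

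Of 9 tested HIF factors and hydroxylases, 2 rose and none fell, against 8.39% and 2.28% of all genes, and after median-of-ratios scaling none rose and 1 fell. Hif1a had 95.8, 99.3 and 98.8 TPM with DFO and 97.1, 93.2 and 93.5 TPM in controls (0.05, 95% interval -0.03 to 0.12), and the prolyl hydroxylase gene Egln1 differed by 0.03 with a wide interval (-0.30 to 0.36). Egln3 and Ndrg1, both strongly hypoxia-inducible in many cells, were listed at 0 in all 6 libraries. Egln2 (0.11, adjusted p = 0.0283) and P4htm (0.35, adjusted p = 0.0437), another prolyl hydroxylase and a relative in the endoplasmic reticulum, were called higher, and after median-of-ratios scaling the adjusted p was 0.343 for Egln2 and 0.0845 for P4htm. Neither call held without any 1 of DFO 1, DFO 3 and the 3 control libraries, and that of P4htm was lost without DFO 2 as well. Of 42 tested iron-dependent demethylases and other dioxygenases, only Riox1 (0.27, adjusted p = 0.0187) and Kdm4a (0.08, adjusted p = 0.0405) were called, both higher, and the adjusted p of Kdm4a was 0.59 after median-of-ratios scaling and 0.0713 to 0.13 without any 1 library but DFO 2. The adjusted p of Riox1 passed 0.05 without DFO 2 or 3 or control 2 or 3 (0.0599 to 0.0717).

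BACH1 is a repressor that heme removes from DNA, and NRF2 activates many of the same antioxidant genes when it escapes KEAP1. Of 32 tested targets (36 listed), 19 fell and none rose (1 rose without control 1), 59.4% against 2.28% of all tested genes, and 20 fell after median-of-ratios scaling. The median log2 fold change was -0.13. Srxn1, which reactivates oxidised peroxiredoxins, had 42.2, 43.2 and 41.7 TPM with DFO, against 73.9, 67.4 and 73.6 TPM in controls (-0.74 ± 0.044, adjusted p = 1.09e-05). Nqo1, a quinone reductase, had 20.9, 21.5 and 21.03 TPM with DFO, against 41.0, 35.4 and 37.9 TPM in controls (-0.82 ± 0.099, adjusted p = 0.000529). Hmox1, the enzyme that breaks heme down and frees its iron, had 94.2, 100.0 and 105 TPM with DFO, against 147, 148 and 149 TPM in controls (-0.56 ± 0.055, adjusted p = 0.000144). In all 3 genes every DFO library lay below every control.

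Further called members of the list were named after their values were seen. Gclm and Gclc, the 2 subunits of the enzyme that starts glutathione synthesis, fell by 0.36 and 0.24 on the log2 scale (adjusted p = 1.98e-05 and 0.00262). G6pdx, the entry enzyme of the pentose phosphate pathway, had 155, 160 and 159 TPM with DFO, against 198, 187 and 198 TPM in controls (-0.30, adjusted p = 0.000107). Txnrd1, thioredoxin reductase, fell by 0.20 and Cat, catalase, by 0.21 (adjusted p = 0.00164 and 6.75e-05). Me1, malic enzyme, fell by 0.36 (adjusted p = 0.0241), a call lost without DFO 1, DFO 2, control 2 or control 3 (adjusted p between 0.0644 and 0.0893).

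The regulators themselves were not called. Bach1 had 412, 389 and 390 TPM with DFO and 403, 397 and 393 TPM in controls (log2 fold change 95% interval -0.06 to 0.05), Nfe2l2, which encodes NRF2, differed by 0.07 (adjusted p = 0.102) and Keap1 by 0.06 (adjusted p = 0.57). Mafg, a small partner protein of both factors, fell by 0.18 (adjusted p = 0.00282).

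Most of these genes stood higher with DFO than with SA. In the direct comparison 20 of the 32 were higher with DFO than with SA and none lower, against 7.21% higher over all genes. Hmox1 averaged 99.9 ± 5.61 TPM with DFO and 57.1 ± 3.18 TPM with SA (SD, n = 3 each, log2 difference 0.80, adjusted p = 5.93e-06), and Me1 12.0 ± 1.07 TPM with DFO and 6.61 ± 0.435 TPM with SA (0.77, adjusted p = 0.000188). Nqo1 was not called, with 21.1 ± 0.345 TPM with DFO and 22.5 ± 0.742 TPM with SA (-0.08, 95% interval -0.30 to 0.13).

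**Figure D3:**
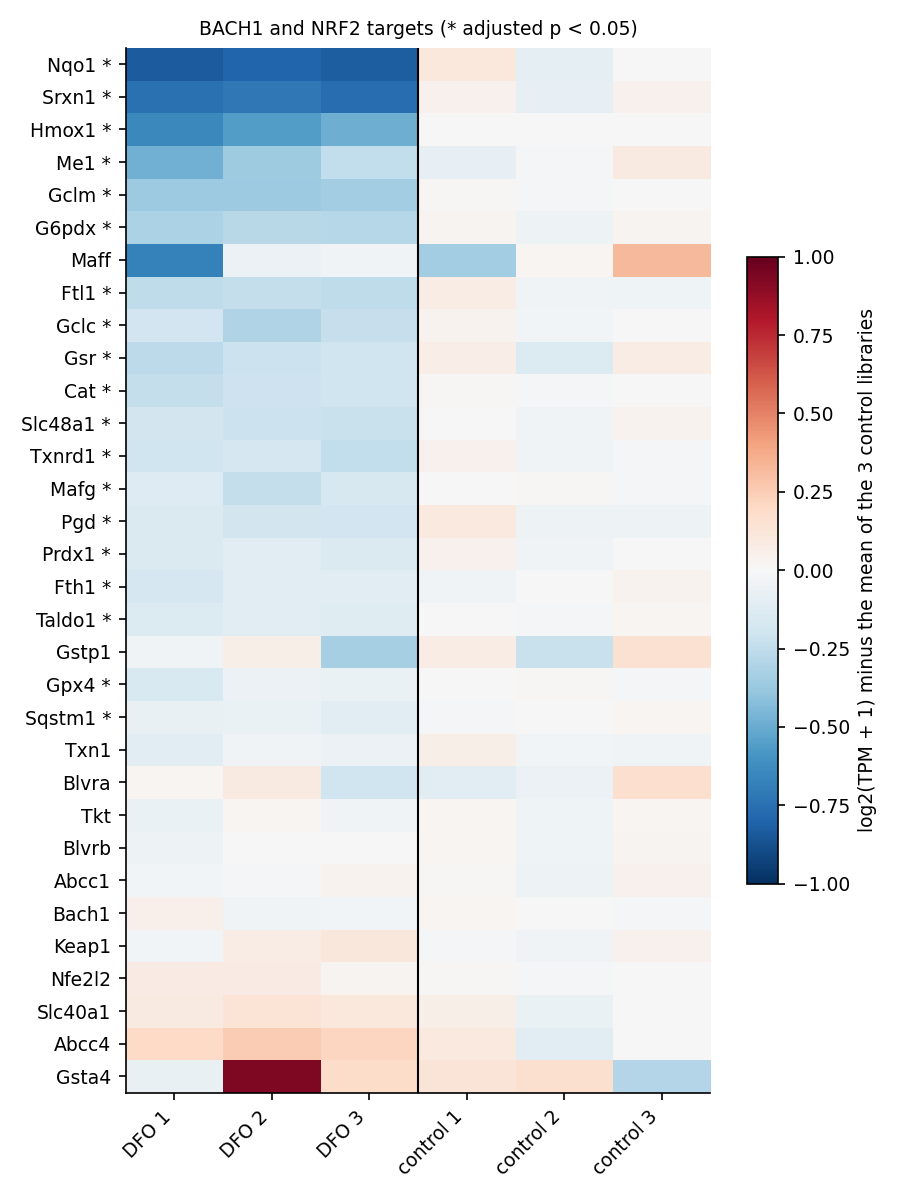
Each tested BACH1 and NRF2 target in the 3 DFO and 3 control libraries, as log2(TPM + 1) minus the mean of the 3 controls, with genes ordered by their fold change and called genes marked by an asterisk. The 19 called genes are blue in the DFO columns, deepest for Nqo1, Srxn1 and Hmox1, while Bach1, Keap1 and Nfe2l2 are near white.

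Promoters of 29 genes of this list were found in the RefSeq table (GRCm38.p6, 250 bases before to 50 after the start). The core of the antioxidant response element, TGACNNNGC on either strand, was in 12 of the 29 and in 14.0% of 27025 promoters overall. Of 15 called members with a promoter 8 held it, against 17.04% of the 7841 tested genes with one. A match is a description of letters and not of binding. 2 windows of 80 bases are shown for genes with even falls in all 3 DFO libraries, in the sense of the gene, with the match, on the opposite strand, in capitals.
Gclm, chr3:122245387-122245466, plus strand: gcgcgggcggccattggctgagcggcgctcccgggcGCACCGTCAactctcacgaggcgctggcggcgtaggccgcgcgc
G6pdx, chrX:74428894-74428973, minus strand: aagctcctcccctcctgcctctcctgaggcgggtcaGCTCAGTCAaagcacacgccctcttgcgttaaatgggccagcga

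Hemoglobin messages fell. Of 11 tested globin genes 6 fell and none rose, against 2.28% and 8.39% of all genes, with a median log2 fold change of -0.68. Hbb-bh1, an embryonic beta-like globin, had 32.7, 33.2 and 26.1 TPM with DFO, against 80.1, 80.3 and 79.1 TPM in controls (-1.36 ± 0.095, adjusted p = 1.94e-05). Hba-x, the embryonic zeta globin, had 2.04, 3.07 and 2.02 TPM with DFO, against 8.67, 7.56 and 7.32 TPM in controls (-1.40 ± 0.19, adjusted p = 0.0011), from as few as 13 reads in a DFO library. Hbb-y, embryonic epsilon globin, had 7.68, 3.29 and 7.92 TPM with DFO, against 15.5, 15.97 and 13.3 TPM in controls (-1.20 ± 0.22, adjusted p = 0.00692, or 0.0521 in a fit of the 6 libraries alone). For each of the 3 the DFO libraries lay well below the controls.

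The adult chains fell too. Hbb-bs, adult beta globin, had 11054, 12848 and 12022 TPM with DFO, against 18083, 20655 and 18965 TPM in controls (-0.68 ± 0.058, adjusted p = 7.1e-05), and Hba-a1, adult alpha globin, had 9063, 9321 and 9107 TPM with DFO, against 10940, 11881 and 11946 TPM in controls (-0.34 ± 0.040, adjusted p = 0.00049). Their near-identical copies Hbb-bt and Hba-a2 varied widely between replicates and were not called, and how the counting shared reads between such copies is not given in the sources used here. Against SA, beta-like globins were higher with DFO: Hbb-y (log2 difference 2.17), Hbb-bh1 (1.38) and Hbb-bs (0.68, adjusted p = 2.52e-05). No alpha-like chain was called in that comparison, with Hba-a1 differing by 0.13 (95% interval 0.04 to 0.21, adjusted p = 0.0614) and Hba-x by -0.05 (-0.47 to 0.36).

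In heme synthesis and transport, 9 of 26 tested genes fell and 1 rose, against 2.28% and 8.39% of all genes, with a median of -0.045. After median-of-ratios scaling 12 fell and 0 rose, against 5.42% and 3.55% of all genes. Alad, which joins 2 ALA molecules, had 578, 585 and 559 TPM with DFO, against 670, 653 and 681 TPM in controls (-0.22 ± 0.026, adjusted p = 0.000444). Fech, which puts iron into the ring, differed least of the called genes (-0.07 ± 0.018, adjusted p = 0.0254), and its adjusted p passed 0.05 when any library but control 2 was left out (0.0528 to 0.0877). Mitochondrial carriers fell as well: Slc25a39, the importer of glutathione, fell by 0.21 (adjusted p = 0.00011), and Slc25a38, an importer of glycine, by 0.12 (adjusted p = 0.0166). Both carriers, and Alad, were lower with DFO than with SA (log2 differences -0.22, -0.25 and -0.13). Ppox was the gene that rose (0.12, adjusted p = 0.00926), a call lost after median-of-ratios scaling (0.15). Slc25a38 and Ppox were named after their values were seen.

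Of 42 tested erythroid maturation genes 13 fell and 5 rose, against 2.28% and 8.39% of all genes (18 and 1 after median-of-ratios scaling). The 13 falls were 8 in a fit of the 6 libraries alone. The 5 rises were 2 without DFO 1, control 2 or control 3, and 3 without DFO 3 or control 1. Tmod1 and Slc4a1, of the red cell membrane and its skeleton, had the largest falls of the list. Slc4a1, the anion exchanger band 3, had 472, 447 and 464 TPM with DFO, against 747, 681 and 725 TPM in controls (-0.64 ± 0.0465, adjusted p = 2.44e-05). Tmod1, which caps actin, had 6.65, 6.20 and 7.07 TPM with DFO, against 11.0, 10.2 and 12.1 TPM in controls (-0.66 ± 0.093, adjusted p = 0.00141). Reads assigned to Gata1, which in this line come from the inserted fusion as well, fell by 0.16 (adjusted p = 0.0033), with 2264, 2194 and 2233 TPM with DFO against 2535, 2422 and 2546 TPM in controls.

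Among genes that GATA1 normally shuts off, 3 of 13 tested rose and none fell, against 8.39% and 2.28% of all genes. Kit, the stem cell factor receptor, had 8.75, 8.37 and 8.56 TPM with DFO, against 5.94, 5.95 and 5.60 TPM in controls (0.48 ± 0.045, adjusted p = 0.000119). Vim, vimentin (0.47, adjusted p = 0.00896, or 0.0564 in a fit of the 6 libraries alone), and Ikzf1 (0.16, adjusted p = 0.00231) were the other two, while Gata2 (0.04, adjusted p = 0.733) was not called. Car1, a carbonic anhydrase, belongs instead to the erythroid maturation list, of which 13 genes fell and 5 rose. It was among the rises, with 93.9, 96.9 and 87.7 TPM with DFO against 66.6, 72.1 and 66.4 TPM in controls (0.44 ± 0.040, adjusted p = 0.00011). In DFO and SA cells Kit stood at 8.56 ± 0.190 and 9.34 ± 0.302 TPM (adjusted p = 0.136) and Car1 at 92.8 ± 4.69 and 94.5 ± 0.270 TPM (adjusted p = 0.717).

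ATF4 drives amino acid synthesis and import when eIF2α is phosphorylated, which in erythroid cells the heme-regulated kinase HRI does when heme is low. Of 31 tested ATF4 targets 17 rose and none fell (12 and 1 after median-of-ratios scaling, with 1 fall also without control 1), 54.8% against 8.39% of all genes, with a median of 0.14. The count was 11 without DFO 1 and 11 without control 2. Atf5, a related factor, had 350, 335 and 353 TPM with DFO, against 254, 249 and 247 TPM in controls (0.47 ± 0.028, adjusted p = 1.09e-05). Atf4 itself had 121, 120 and 124 TPM with DFO, against 105, 99.0 and 96.1 TPM in controls (0.28 ± 0.032, adjusted p = 0.000393). Aldh18a1, which starts proline synthesis, rose by a log2 fold change of 0.31 (adjusted p = 0.000482). For these genes the DFO libraries did not overlap the controls.

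Further members were named after their values were seen. Ddit3, the stress factor CHOP, rose by 0.27 (adjusted p = 2.44e-05), Slc7a5, a large amino acid importer, by 0.28 (adjusted p = 0.000334), and Asns, asparagine synthetase, by 0.09 (adjusted p = 0.0121, or 0.36 after median-of-ratios scaling). Trib3 (0.24, adjusted p = 0.155) was not called. Nupr1, a stress-inducible nuclear protein, rose by 0.41 (adjusted p = 0.0259), a call lost without DFO 1, DFO 3, control 2 or control 3 (0.0661 to 0.088). Of 15 tested genes of HRI, the other eIF2α kinases and their partners none was called (1 rose without control 3), and Eif2ak1, which encodes HRI, had 473, 473 and 474 TPM with DFO and 487, 475 and 485 TPM in controls. Over all tested genes limma gave 3025 an unadjusted p below 0.05.

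ATF4 targets stood lower with DFO than with SA. In the direct comparison 22 of 31 were lower with DFO and none higher, against 6.31% lower over all genes, with a median difference of -0.24. Atf5 averaged 346 ± 9.63 TPM with DFO and 518 ± 11.9 TPM with SA (-0.58, adjusted p = 1.1e-06), Ddit3 401 ± 6.99 TPM with DFO and 549 ± 4.08 TPM with SA (-0.45, adjusted p = 6e-07), and Trib3 13.1 ± 1.29 TPM with DFO and 26.1 ± 0.731 TPM with SA (-0.95, adjusted p = 9.03e-05; SD, n = 3 each). Nupr1 was not called, with 23.8 ± 1.87 TPM with DFO and 25.2 ± 0.648 TPM with SA (95% interval of the difference -0.31 to 0.14).

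The amino acid response element, searched as TGATGNAA on either strand, was in 13 of 37 promoters of this list and in 4.51% of all promoters. Of 14 called members with a promoter 3 held it, against 2.51% of the 7841 tested genes with one. The Nupr1 window shows it, on the opposite strand, in capitals.
Nupr1, chr7:126625537-126625616, minus strand: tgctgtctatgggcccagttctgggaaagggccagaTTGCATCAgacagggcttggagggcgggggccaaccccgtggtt

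Most mitotic messages fell. All 37 genes of the mitosis list were tested, all 37 had negative fold changes under TPM, median-of-ratios and trimmed-mean scaling, and 30 were called lower (34 after median-of-ratios scaling, 19 without DFO 3), 81.1% against 2.28% of all genes. In 35 of the 37 every DFO library lay below every control, which held for 6.47% of all tested genes. The median was -0.25, and the members ran from -0.37 to -0.03. Cdk1, the kinase that starts mitosis, had 14.4, 14.9 and 15.9 TPM with DFO, against 20.7, 19.6 and 18.7 TPM in controls (-0.37 ± 0.068, adjusted p = 0.00649). Plk1, polo-like kinase, had 60.0, 60.4 and 64.3 TPM with DFO, against 78.7, 75.6 and 76.8 TPM in controls (-0.32 ± 0.058, adjusted p = 0.00567). Cenpf, a kinetochore protein, and Ncapg, a condensin subunit, fell by 0.33 and 0.31 (adjusted p = 0.0118, or 0.0505 without DFO 3, for Cenpf). Ncapg lost its call without DFO 3 or control 1 (adjusted p = 0.0637 and 0.0623). Mki67, the proliferation marker, named after its values were seen, fell by 0.31 (adjusted p = 0.000415). Pttg1, securin, moved least (-0.03, adjusted p = 0.709).

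S phase genes fell in part. All 51 were tested, 13 fell (26 after median-of-ratios scaling) and none rose, against 2.28% lower over all genes (5.42% after median-of-ratios scaling), with a median of -0.12. Rrm2, the iron-bearing subunit of ribonucleotide reductase, had 76.0, 73.0 and 76.9 TPM with DFO, against 106, 98.3 and 106 TPM in controls (-0.45 ± 0.051, adjusted p = 0.000344). E2f2, a factor that drives S phase genes, had 25.6, 25.6 and 26.9 TPM with DFO, against 37.6, 33.9 and 36.0 TPM in controls (-0.44 ± 0.047, adjusted p = 0.000256), and Mcm5, of the replicative helicase, fell by 0.41 (adjusted p = 0.000296). Mcm6, of the same helicase, fell by 0.31, a call lost without DFO 1, DFO 3, control 1 or control 3 (0.0512 to 0.0607). Rrm1, the other reductase subunit, fell by 0.18 (adjusted p = 0.00479), and Rrm2b, the p53-driven small subunit, was not called (0.04, adjusted p = 0.86), both named after their values were seen.

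**Figure D4:**
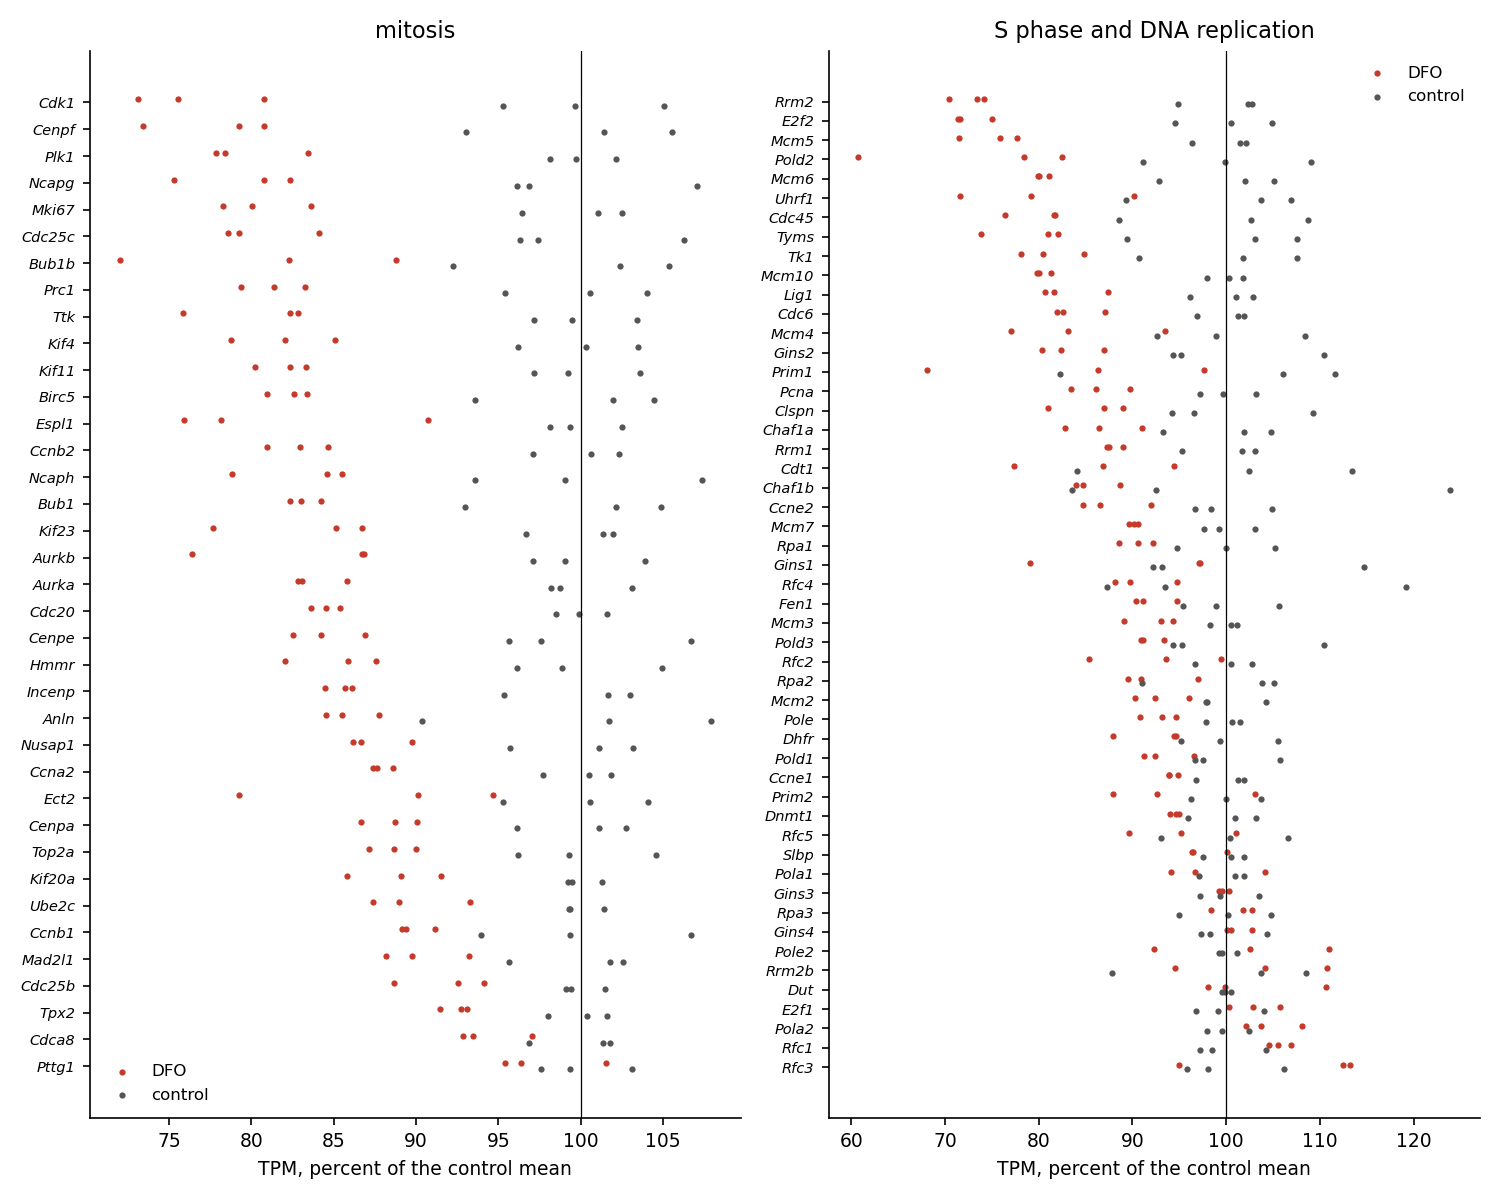
TPM of each tested mitosis gene (left) and S phase gene (right) in the 3 DFO and 3 control libraries, as a percent of the gene's control mean, with genes ordered by fold change and the line at 100. In 35 of the 37 mitosis genes and 28 of the 51 S phase genes all DFO points lie left of all control points. Over all tested genes this held for 6.47%.

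Part of the mitosis list was also lower with DFO than with SA. Of the mitosis list 12 were lower with DFO than with SA and none higher, against 6.31% and 7.21% of all genes, with a median difference of -0.15 and Cdk1 at 15.0 ± 0.770 TPM with DFO and 18.3 ± 1.26 TPM with SA (-0.27, adjusted p = 0.0229; SD, n = 3 each). Of the S phase list 6 were higher and 2 lower with DFO, against 7.21% and 6.31% of all genes, with a median difference of 0.014. Rrm2 stood at 75.3 ± 2.05 TPM with DFO and 76.9 ± 2.71 TPM with SA (95% interval of the difference -0.14 to 0.08), and E2f2 was lower with DFO (-0.32, adjusted p = 0.00112).

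The cell cycle homology motif TTTGAA, on either strand, was in 22 of 31 mitosis promoters and 20.2% of all promoters, and CCAAT, bound by NF-Y, in 25 of 31 mitosis promoters and 41.1% of all promoters. Of 25 called members with a promoter 19 held TTTGAA and 23 held CCAAT, against 14.1% and 44.7% of the 7841 tested genes with one. The Cdk1 window holds TTTGAA, in capitals, at 2 places.
Cdk1, chr10:69352913-69352992, minus strand: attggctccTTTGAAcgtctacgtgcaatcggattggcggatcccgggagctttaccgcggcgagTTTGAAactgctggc

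p53 targets rose in part. Of 26 tested 10 rose (6 after median-of-ratios scaling, 6 in a fit of the 6 libraries alone) and none fell, 38.5% against 8.39% of all genes, with a median of 0.071. Ccng1, cyclin G1, had 411, 395 and 392 TPM with DFO, against 351, 332 and 352 TPM in controls (0.21 ± 0.027, adjusted p = 0.000822). Ccnd2, cyclin D2 (0.25, adjusted p = 0.00164), and Bbc3, the death factor PUMA (0.22, adjusted p = 0.00266), also rose. Phlda3, an inhibitor of AKT, rose by 0.27 (adjusted p = 0.0118, or 0.052 after median-of-ratios scaling). Cdkn1a, the cell cycle inhibitor p21, was not called, with 189, 200 and 195 TPM with DFO and 200, 198 and 191 TPM in controls (95% interval -0.08 to 0.06), nor was Mdm2 (-0.02, -0.10 to 0.07), both named after their values were seen. Against SA, 13 of the 26 were higher with DFO and 3 lower, against 7.21% and 6.31% of all genes. Among the higher were Cdkn1a, with 195 ± 5.58 TPM with DFO and 147 ± 5.41 TPM with SA (0.40, adjusted p = 1.52e-05), and Ccng1, by 0.38 (adjusted p = 8.07e-06).

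Nearly all cholesterol genes were higher with DFO than with SA. Of 29 tested genes of the cholesterol synthesis and uptake list, 28 were higher with DFO than with SA and none lower, 96.6% against 7.21% of all genes, with a median difference of 0.31. The list also holds Fasn, which encodes fatty acid synthase. Hmgcs1, HMG-CoA synthase, averaged 478 ± 7.47 TPM with DFO, 348 ± 10.2 TPM with SA and 469 ± 8.64 TPM in controls (SD, n = 3 each). The difference of DFO from SA was 0.46 for Hmgcs1 (adjusted p = 2.4e-06), which was named after its values were seen. Against control 4 of the 29 were called higher with DFO and none lower, against 8.39% and 2.28% of all genes. The 4 were Fasn (0.17), Dhcr7 (0.16), Mvd (0.16) and Ebp (0.10). After median-of-ratios scaling 1 was higher and 4 lower, against 3.55% and 5.42% of all genes. Mvd, which makes isopentenyl diphosphate, kept its call under each alternative (adjusted p = 0.000988 in the full fit), while Fasn, Dhcr7 and Ebp lost theirs after median-of-ratios scaling (0.121, 0.103 and 0.376). The 4 rises were 1 without DFO 1, DFO 2 or control 2 and 2 without DFO 3, control 1 or control 3.

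**Figure D5:**
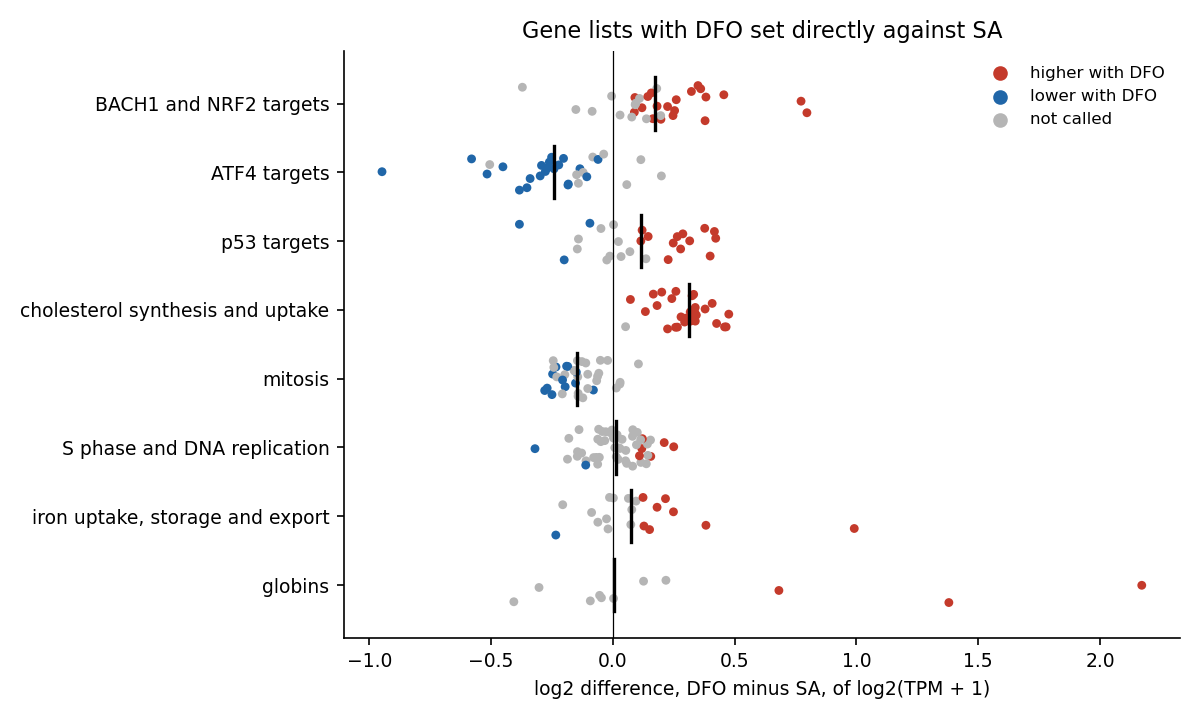
Log2 difference, DFO minus SA, of log2(TPM + 1) for the tested members of 8 gene lists, 1 point per gene, coloured by call at an adjusted p below 0.05, with the list median as a black bar. Cholesterol genes and BACH1 and NRF2 targets lie mainly to the right of 0, and ATF4 targets and mitosis genes mainly to the left.

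Few genes that build or carry iron-sulfur clusters were called. Of 29 tested genes that build iron-sulfur clusters, 3 rose and 1 fell: Hscb, a cochaperone of cluster transfer, had 128, 126 and 130 TPM with DFO against 102, 101 and 108 TPM in controls (0.30 ± 0.048, adjusted p = 0.00281), Nfu1 and Hspa9 rose by 0.12 each, and Ciapin1 fell by 0.17 (adjusted p = 0.019). Without DFO 1, DFO 3 or control 2 only 1 gene rose. After median-of-ratios scaling Nfu1 and Hspa9 were no longer called (adjusted p = 0.196 and 0.131), and Ciapin1 was not called without DFO 1 or 3 or control 1 or 3 (0.0509 to 0.0707). Of 39 tested proteins that carry such clusters 3 rose and 1 fell (0 and 6 after median-of-ratios scaling, and no fall without any 1 library but control 2), and of 65 nuclear-encoded respiratory chain genes 3 rose and none fell (0 and 1 after median-of-ratios scaling, 1 rise without DFO 2 and 5 without control 2). Over all genes 8.39% were higher and 2.28% lower, or 3.55% and 5.42% after median-of-ratios scaling. In the tricarboxylic acid cycle list 2 of 27 rose, Suclg2 (0.28, adjusted p = 0.0195, or 0.0543 after median-of-ratios scaling) and Pcx (0.20, adjusted p = 0.00244), and 1 fell, Dlst (-0.08, adjusted p = 0.0432). Suclg2 lost its call without DFO 2, DFO 3, control 1 or control 2 (0.0505 to 0.0705), and Dlst without any 1 library but control 2 (0.0588 to 0.145).

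Autophagy and mitophagy genes rose in 5 of 34 (3 without DFO 1, DFO 2, control 1 or control 3) and fell in 2 (1 without DFO 1, control 2 or control 3), against 8.39% and 2.28% of all genes. Endoplasmic reticulum chaperones rose in 1 of 21 and fell in 2 (Herpud1 0.21 higher, Xbp1 and Pdia6 0.13 lower on the log2 scale), and MYC and ribosome biogenesis genes rose in 4 of 45 and fell in none. After median-of-ratios scaling 3 autophagy genes rose and 6 fell, no chaperone rose and 6 fell, and 1 ribosome biogenesis gene rose and none fell. The rise of Herpud1 was lost without DFO 1, DFO 3 or control 2 (0.0563 to 0.0689), the fall of Pdia6 without any 1 library but control 2 (0.0681 to 0.115), and the ribosome rises were 1 without DFO 1, control 1 or control 3 and 2 without DFO 2 or control 2. Npm1, nucleophosmin, had the largest rise of the ribosome list, with 672, 688 and 674 TPM with DFO against 544, 535 and 546 TPM in controls (0.32 ± 0.018, adjusted p = 6.21e-06). Of 18 tested zinc transporters and metallothioneins 2 rose (1 after median-of-ratios scaling), near the 8.39% of all genes: Slc39a6 (0.31, adjusted p = 0.00927, or 0.0564 in a fit of the 6 libraries alone) and Mt1 (0.12, adjusted p = 0.02, or 0.308 after median-of-ratios scaling and 0.0519 to 0.0691 without DFO 1, DFO 2 or control 1). The zinc importer gene Slc39a10 was not called, with 1.18, 1.05 and 1.36 TPM with DFO and 1.49, 1.62 and 1.64 TPM in controls (adjusted p = 0.207). Of the 5 tested megakaryocyte markers 1 rose, Gp1ba, a platelet receptor chain, with 6.40, 6.18 and 6.13 TPM with DFO against 4.01, 4.83 and 4.05 TPM in controls (0.45, adjusted p = 0.0283). The call of Gp1ba was lost without any 1 of the DFO libraries, control 1 or control 3 (0.0665 to 0.0882).

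The 12 largest rises were taken among called genes that reached 5 TPM and did not overlap the controls, with predicted models left out. They also held genes outside the lists. Itgb7, an integrin chain, had 7.29, 7.45 and 7.04 TPM with DFO, against 4.83, 4.84 and 3.20 TPM in controls (0.66 ± 0.14, adjusted p = 0.0114). Septin9, a cytoskeletal filament protein, rose by 0.65 (adjusted p = 0.000529), Gsn, the actin-severing protein gelsolin, by 0.54 (adjusted p = 0.00164), and Icam2, an adhesion molecule, by 0.52 (adjusted p = 0.00269). Espn, the actin-bundling protein espin, had 150, 153 and 155 TPM with DFO, against 103, 109 and 112 TPM in controls (0.49 ± 0.034, adjusted p = 1.94e-05). Npepl1, an aminopeptidase-like protein, had 26.0, 25.4 and 25.8 TPM with DFO, against 18.9, 17.3 and 17.3 TPM in controls (0.51 ± 0.047, adjusted p = 0.000115). Each lay above the controls in every DFO library, which this choice required. Of these genes Gsn (0.33, adjusted p = 0.0167) was higher with DFO than with SA.

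Of the other large changes several rest on short or repeated sequences. Snora69, a small nucleolar RNA, had 13.5, 8.55 and 9.31 TPM with DFO, against 2.105, 2.00 and 2.18 TPM in controls (1.86 ± 0.30, adjusted p = 0.00277), from 2 reads in the lowest control and 7 in the lowest DFO library. The pseudogenes Rpl17-ps9 and Rpl17-ps5 rose by 0.72 and 0.59, and Ftl1-ps1 fell by 0.63, and how their reads were told from those of their parent genes was not tested, and each lost its call when 1 of several single libraries was left out (adjusted p up to 0.157 for Rpl17-ps9, 0.0552 for Rpl17-ps5 and 0.125 for Ftl1-ps1). Zfp335os, an antisense transcript, rose by 0.58 (adjusted p = 0.00751). The libraries were strand-specific, but whether strand was used in counting is not given in the sources used here, so its reads and those of Zfp335 cannot be told apart. Asb17, a protein-coding gene that is not among these, rose by 0.49 (adjusted p = 0.0142, or 0.0552 without DFO 3 and 0.0547 without control 3). CT010467.1, annotated as a ribosomal RNA, fell by 0.77 (adjusted p = 0.0115, or 0.0534 in a fit of the 6 libraries alone). It had 3176, 3355 and 3264 TPM with DFO against 4218, 7371 and 5559 TPM in controls.

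Genes called against control were not all alike in DFO and SA cells. Of the 1000 genes that rose with DFO, 214 were higher and 147 lower with DFO than with SA, and of the 272 that fell, 66 were higher and 62 lower, against 7.21% higher and 6.31% lower over all genes. The same 3 DFO libraries enter both comparisons, so these counts are a description. Soat2, which esterifies cholesterol, averaged 22.7 ± 0.844 TPM with DFO and 38.6 ± 3.51 TPM with SA (SD, n = 3 each, -0.74, adjusted p = 6.82e-05). Its call against control was lost after median-of-ratios scaling (adjusted p = 0.0981), and without any 1 DFO library or control 1 (0.0564 to 0.102). Hoxc5, a homeobox gene, stood at 48.6 ± 1.48 TPM with DFO and 71.7 ± 2.66 TPM with SA (-0.55, adjusted p = 0.000188), and Adgrg1, an adhesion receptor, at 69.7 ± 0.911 TPM with DFO and 98.4 ± 0.836 TPM with SA (-0.49, adjusted p = 8.62e-07). Rn7sk, a small nuclear RNA, was lower with DFO as well (-0.59, adjusted p = 0.0123). The call of Rn7sk against control was lost by voom (adjusted p = 0.148) and without any 1 library but DFO 2 (0.0637 to 0.14).

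DFO and DTPA cells differed in 7858 genes (65.9%), 5528 (46.4%) higher and 2330 (19.5%) lower with DFO. Hmmr, a spindle protein, averaged 68.2 ± 2.27 TPM with DFO and 4.11 ± 0.108 TPM with DTPA (log2 difference 3.76, adjusted p = 3.69e-14), and Mt1, a zinc-induced metallothionein, 2036 ± 21.2 TPM with DFO and 122 ± 3.52 TPM with DTPA (4.05). Among genes called against control, the largest difference the other way was that of Hbb-bh1, at 30.6 ± 3.95 TPM with DFO and 8285 ± 365 TPM with DTPA (-8.04, adjusted p = 8.31e-14; SD, n = 3 each). Tfrc was higher with DFO (0.69, adjusted p = 7.09e-09), and Ftl1 (0.05, adjusted p = 0.116) and Fth1 (-0.01, adjusted p = 0.709) were not called.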

How the data were processed

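Messenger RNA from 12 libraries was sequenced, and sample titles gave the groups. The submitters' processing notes name Trimmomatic 0.33, FastQC, HISAT2 2.1.0, featureCounts, edgeR and the build mm10. How these were set, and which annotation was used, is not given in the sources used here. For each library the authors deposited TPM for 55487 gene symbols. As TPM has a fixed total, the fall of an abundant class raises the others.

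Reads were recovered by scaling TPM with GENCODE M21 exon lengths: of values up to 200 reads, 98.8% to 99.0% were whole within 0.1 read. Replicates differed beyond counting noise, and none were identical. The p-values set each difference against the spread between replicate cultures, estimated over all 12 libraries, SA and DTPA included.

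The model, limma 3.58.1 under R 4.3.3, took log2(TPM + 1) of genes reaching 1 TPM in 3 or more libraries. It gave each of the 4 groups a mean, with a trended prior variance and nothing else. Benjamini-Hochberg adjustment ran over all 11920 genes, with 0.05 as the threshold. Fold changes of genes near 1 TPM are understated. The fit was tested on simulated data. Python 3.11.15, pandas 2.3.3, numpy 2.4.6, scipy 1.17.1 and matplotlib 3.10.9 made the tables and figures.

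The 26 gene lists, the genes named and the comparisons were chosen with earlier results of these data known. Named were the 12 largest rises and falls against control that did not overlap it and reached 5 TPM, up to 4 called genes per list, the 6 largest each way against SA and DTPA, and a set of iron, heme and hypoxia genes. Some of these are given by count, predicted models were left out, some results are not reported here, and genes outside the rule are marked in the text.

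Results were recomputed with other pseudocounts (0.1 and 5), with none or a stricter filter (5 TPM), after median-of-ratios or trimmed-mean scaling, without globins, over protein-coding genes, with a robust prior, by voom on recovered reads, in the 6 libraries alone, with a replicate block, leaving out each library, and requiring a log2 fold change of 1.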

Additional observations from a re-analysis of the deposited data

How the results depend on the processing

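The count of genes that differed between DFO and control was 1272 and fell to 802 (613 higher) in a fit of the 6 libraries alone, to 22 (11 higher, 11 lower) with a log2 fold change of at least 1, and to between 840 and 960 with 1 library left out (634 to 781 higher, 174 to 246 lower). Median-of-ratios scaling gave 423 higher and 646 lower, trimmed-mean scaling 417 higher and 657 lower, and voom on the recovered reads 498 lower; the cause was not tested. Between DFO and SA a log2 fold change of at least 1 left 30 genes (15 higher, 15 lower), and 1 library left out gave 500 to 596 lower genes. Between DFO and DTPA that threshold left 1077 genes (730 higher, 347 lower), and lower genes numbered 3775 after median-of-ratios and 3765 after trimmed-mean scaling. The log2 fold change of 4 genes that were not called changed sign. After median-of-ratios and trimmed-mean scaling it was -0.0090 and -0.0100 for Fbxl5, -0.019 and -0.020 for Egln1, and -0.0054 and -0.0064 for Hif1a. With 1 library left out it ran from -0.0024 to 0.072 for Fbxl5, from -0.144 to 0.135 for Egln1 (-0.070 without DFO 3), and from -0.060 to 0.0040 for Ireb2 (0.0016 without DFO 3). None of the 109 called named genes changed sign under any setting in which it was tested against control. Of these genes 55 kept their call under each such setting, and 62 did so with leave-one-out set aside. With globins removed from TPM the 6 globin calls cannot be made. Replicate numbers did not pair DFO with control libraries (correlations of deviations 0.018, 0.053 and -0.017, and 1 of 3 DFO libraries correlated best with its own number), and with the replicate block 1058 genes were called, 817 higher and 241 lower. Depth limits genes near 1 TPM, where a library holds few reads.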
